A study of Mus musculus with 91 samples.

Results

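The Cyp4 genes described here are 7 cytochrome P450 genes of mouse liver, Cyp4a14, Cyp4a31, Cyp4f14, Cyp4f13, Cyp4f15, Cyp4v3 and Cyp4b1. They were taken by symbol, whatever their values, from the platform annotation of the arrays, in which 9 probe sets name 1 of them alone. They are 7 of the 18193 genes tested. Of 13 other Cyp4 genes looked for, 5 were measured by a probe set of their own, and Cyp4a10 was not analysed here because the probe set that names it names Cyp4a31 as well.

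Cytochromes P450 of family 4 add a hydroxyl group to the far, omega end of fatty acids and of lipid mediators made from them. In liver the products are oxidised on to dicarboxylic acids, which peroxisomes shorten, so that the pathway relieves mitochondria when fatty acids are in excess. Cyp4a genes are textbook targets of PPARα, the nuclear receptor that senses fatty acids in hepatocytes. Cyp4f enzymes hydroxylate leukotrienes and other eicosanoids as well as fatty acids, Cyp4v3 is the mouse counterpart of human CYP4V2, a fatty acid hydroxylase mutated in a crystalline disease of the retina, and Cyp4b1 is best known from lung, where it activates some toxicants.

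Liver RNA of 91 adult male mice, 1 array per mouse, was measured after 28 days, or after 56 days in 2 groups, in 10 treated and 9 control groups of 4 or 5 mice. C57BL mice received Wy-14643 (WY, a PPARα agonist, 100 mg/kg by gavage, 5 mice, against 4 mice of the carboxymethylcellulose or CMC cohort Co1), pioglitazone (Pio, a PPARγ agonist, 100 mg/kg by gavage, 5 against 4 of Co5), methapyrilene HCl (MePy, an antihistamine, 1000 ppm in food, 5 against 4 of Co3) or piperonyl-butoxide (PBO, an insecticide synergist, 600 mg/kg intraperitoneally, 4 against 5 of Co2). C57BL mice, and mice of the strain labelled C57BL/hCAR/hPXR, received CITCO (an agonist of human CAR, 10 mg/kg intraperitoneally, 5 against 5 of Co4 and 5 against 5 hCAR/hPXR mice given CMC). C57BL mice also received phenobarbital (PB, an activator of CAR, 0.05% in drinking water for 28 or 56 days, 5 against 5 mice on water at each time), cyproterone acetate (CPA, a steroidal antiandrogen, 160 mg/kg by gavage) or 1,4-dichlorobenzene (DCB, a solvent and mothball agent, 600 mg/kg by gavage), 5 mice each against the same 5 mice given corn oil (CO). The labels give no route for the control vehicles, and the mice fed methapyrilene were set against mice given CMC.

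Expression is given on the log2 scale, 1 value per probe set and array, and each gene is read from its probe set with the highest mean. Levels are therefore compared between mice for the same gene and not between genes. Of 13 hepatocyte markers measured, 12 had group means of 11.12 to 15.21, highest for Alb (albumin), and Ass1 had 7.08 to 9.63, while markers of kidney and lung, other tissues rich in Cyp4 enzymes, lay at 3.25 to 6.57. These are group means. Averaged over the kidney and lung markers, the highest single liver was in the 56-day water group, at 5.47. In any other group the highest liver reached at most 4.92. In whole liver, fewer cells of a type and less RNA per cell cannot be told apart. Livers of 2 groups went against their labels. In livers labelled pioglitazone Cyp2b10, a target of CAR, rose by 6.06 ± 0.49 (log2, SE) and the PPARγ target Fabp4 differed by −0.33 ± 0.54 (adjusted p = 0.939), whereas in livers labelled methapyrilene Fabp4 rose by 3.37 ± 0.54 and Cyp2b10 differed by −0.36 ± 0.49 (adjusted p = 0.94). Both groups are therefore named as labelled, and no direction of theirs is tied to a compound. The hCAR/hPXR mice had lower signals for mouse Nr1i3 (CAR) and Nr1i2 (PXR) than Co4 mice under the same vehicle, by −3.47 ± 0.23 and −3.48 ± 0.18.

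Wy-14643 moved 3 of the 7 Cyp4 genes, where 10.6% of all genes passed (adjusted p under 0.05). Cyp4a31 rose, and Cyp4f14 and Cyp4v3 fell. Cyp4a14 stood higher in every treated mouse than in any control mouse, as 4.09% of all genes did, but did not pass. Cyproterone acetate lowered 3 genes, Cyp4a14, Cyp4a31 and Cyp4v3, where 5.32% of all genes passed. 1,4-Dichlorobenzene lowered Cyp4v3 alone of the 7, where 3.83% passed, and phenobarbital at 28 days raised Cyp4f15 alone of the 7, where 0.967% passed. No member passed in the other 6 comparisons, in which the share of all genes that passed was 0.566% for phenobarbital at 56 days, 0.808% for piperonyl-butoxide, 0.0055% for CITCO in C57BL mice, 0.0989% for CITCO in hCAR/hPXR mice, 0.022% for livers labelled pioglitazone and 0.181% for livers labelled methapyrilene. At an unadjusted p under 0.05, members numbered 0, 3, 0, 1, 1 and 2 of 7 in these 6 comparisons, in that order, by the same limma fit, where 6.78%, 12.4%, 4.8%, 7%, 7.66% and 6.73% of all genes did.

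**Figure D1:**
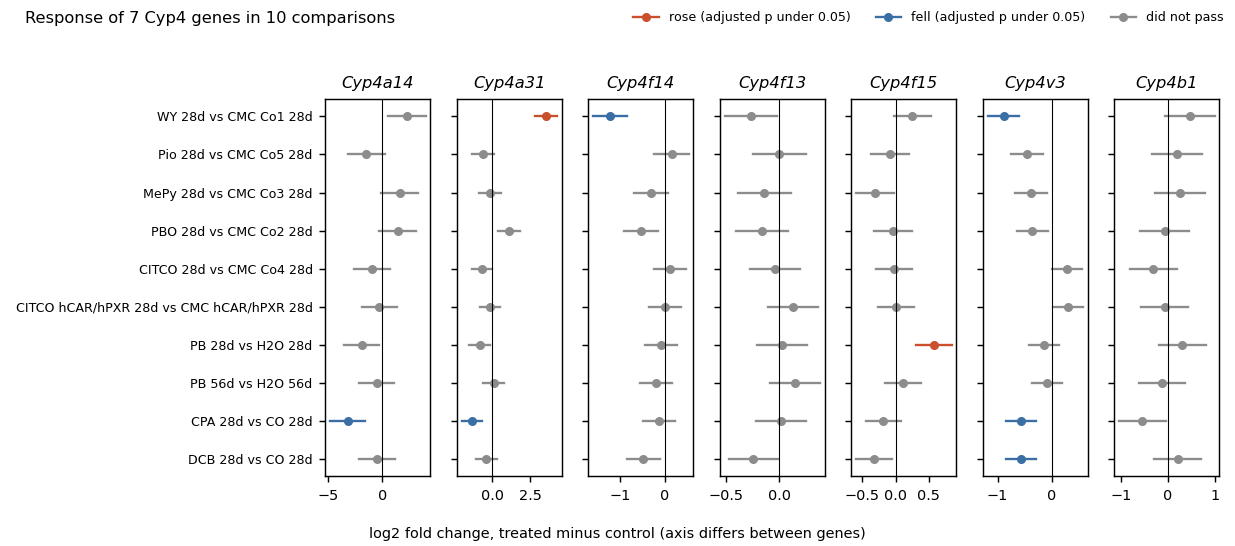
Log2 fold change, treated minus control, of 7 Cyp4 genes (columns) in 10 comparisons (rows), with 95% intervals from limma; the x axis differs between genes. Orange marks a rise and blue a fall that passed (adjusted p under 0.05 over all genes), and grey marks the rest. The widest intervals are those of Cyp4a14, and its change of −3.20 under cyproterone acetate passed while its change of 2.29 under Wy-14643 did not.

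Cyp4a14 encodes a fatty acid omega-hydroxylase. Its log2 level was 14.32, 13.81, 14.30, 14.02 and 14.15 in the 5 Wy-14643 livers, against 12.05, 11.51, 11.28 and 12.47 in the 4 Co1 livers. The 2 groups did not overlap, which held with every treated array above the control range for 4.09% of all genes. The change of 2.29 ± 0.87 (SE, a ratio of 4.90) had an adjusted p of 0.0733 in the fit over all 19 groups, which pools the spread of Cyp4a14 over groups. When the 9 arrays of the comparison were fitted alone the SE was 0.20 and the adjusted p 3.85e-05.

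Under cyproterone acetate the Cyp4a14 level was 12.05, 6.08, 10.05, 8.01 and 7.27, against 12.70, 11.57, 12.36, 11.33 and 11.49 under corn oil. Treated mouse 1 lay within the control range and the other 4 lay below it. The fall was −3.20 ± 0.82 (adjusted p = 0.00879), a level 9.17-fold lower, and it no longer passed without treated mouse 2 (−2.54, adjusted p = 0.0787) or when the groups compared were fitted alone (adjusted p = 0.0886). Under 1,4-dichlorobenzene, set against the same corn oil mice, the level was 10.20, 11.53, 12.11, 11.51 and 11.70, which overlapped the control range (−0.48 ± 0.82, adjusted p = 0.868). Cyproterone acetate livers differed from 1,4-dichlorobenzene livers directly by −2.72 ± 0.82 (adjusted p = 0.0365), and Cyp4a14 was the 1 member called in that comparison, where 4.11% of all genes passed. That call was lost without any 1 of cyproterone acetate mice 2, 4 and 5 or of 1,4-dichlorobenzene mice 2, 3, 4 and 5, with a change of −2.07 to −2.69 in these fits. With arrays weighted by quality it was lost too (−2.35, adjusted p = 0.0837) and Cyp4f13 passed in its place (0.36, adjusted p = 0.0265).

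Cyp4a14 also spread widely where it did not pass. After 28 days of phenobarbital it was 12.05, 6.61, 7.38, 9.48 and 11.01, against 12.63, 10.61, 11.97, 11.15 and 9.74 in mice on water. Mice 2, 3 and 4 of the treated group lay below every control and the other 2 within the control range, with a difference of −1.91 ± 0.82 (adjusted p = 0.407). After 56 days the treated mice ranged from 10.07 to 12.40 and the controls from 10.46 to 13.33, with a difference of −0.50 ± 0.82 (adjusted p = 0.996), and the responses at the 2 times did not differ by the test (56 minus 28 days, 1.41, 95% interval −0.89 to 3.71, adjusted p = 0.999). In hCAR/hPXR mice given CITCO the level was 6.60, 11.60, 7.79, 4.73 and 5.59, against 6.78, 6.87, 8.30, 8.13 and 7.60 under CMC, so that 1 treated mouse lay above all controls and 3 below them.

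Piperonyl-butoxide livers had Cyp4a14 at 7.18, 8.25, 7.10 and 10.73, against 6.91, 7.45, 7.28, 8.001 and 4.84 in Co2. The groups overlapped and the difference was 1.42 ± 0.87 (adjusted p = 0.521). Against the mean of all 5 C57BL CMC cohorts the same livers gave −2.01 ± 0.70 (adjusted p = 0.0248), so the sign for piperonyl-butoxide turns with the choice of control. With that control 4837 of all 18193 genes passed for piperonyl-butoxide, against 147 with Co2. Livers labelled methapyrilene had 12.41, 13.03, 12.41, 12.17 and 13.06, against 11.06, 12.02, 10.43 and 10.44 in Co3. All 5 lay above the controls, as 1.62% of all genes did, yet the difference of 1.63 ± 0.87 did not pass (adjusted p = 0.773). Livers labelled pioglitazone had 10.61, 11.11, 9.85, 9.56 and 8.97, against 10.05, 13.21, 10.99 and 11.74 in Co5, which overlapped (−1.48 ± 0.87, adjusted p = 0.730).

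Cyp4a31, a Cyp4a gene that lies beside Cyp4a10 in the Cyp4a cluster of chromosome 4, gave the largest change of any member. It was 12.77, 11.11, 12.59, 12.35 and 12.70 in Wy-14643 livers, against 9.24, 8.51, 8.57 and 8.79 in Co1 livers. The groups did not overlap, as held in this direction for 4.09% of all genes, and treated mouse 2 lay 1.24 below the next treated mouse. The rise was 3.53 ± 0.36 (adjusted p = 2.37e-12), a ratio of 11.6. The other probe set of Cyp4a31, which lay between 3.92 and 5.51 in the other 18 group means, averaged 9.67 ± 0.80 (SD, n = 5) in Wy-14643 livers and 4.71 ± 0.39 (SD, n = 4) in Co1 livers and passed (adjusted p = 1.15e-18). That Co1 level lies among those of the kidney and lung markers, so the size of this rise is not resolved. Close copies of Cyp4a31 may share signal with its probe sets, which was not tested.

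Treated mouse 2 of the Wy-14643 group also stood apart outside the Cyp4 genes. The mean level of 37 PPARα target genes was 11.69, 10.35, 11.56, 10.92 and 11.16 in the 5 treated mice, against 10.15, 10.29, 10.16 and 10.35 in Co1 mice, so that mouse 2 reached no more than the highest control. The mean of 25 acute phase genes, made by liver in inflammation, was 10.24, 12.86, 10.52, 11.04 and 11.98 in the treated mice, highest in mouse 2, against 10.20, 10.68, 10.40 and 10.29. The part of inflammation in the Cyp4a31 level was not tested. Without mouse 2 Cyp4a31 still passed, as did Cyp4f14 and Cyp4v3.

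Under cyproterone acetate Cyp4a31 was 7.35, 6.04, 7.66, 6.07 and 6.03, against 7.67, 8.34, 8.40, 7.80 and 7.54 under corn oil. Treated mouse 3 lay within the control range and the other 4 below it. The fall was −1.32 ± 0.34 (adjusted p = 0.00913), a level 2.49-fold lower. It no longer passed when the 2 probe sets were averaged (−0.89, adjusted p = 0.0965), as the other probe set differed by −0.46 ± 0.34, or when the groups compared were fitted alone (adjusted p = 0.0632). Acute phase means in cyproterone acetate mice were 11.11, 12.98, 11.22, 11.18 and 12.84, against 11.80, 11.13, 11.21, 11.40 and 10.74 under corn oil. Mice 2 and 5, the highest of these, were 2 of the 3 mice with the lowest Cyp4a31 and the 2 with the lowest Cyp4a14, while mouse 4 had a low Cyp4a31 at an acute phase mean within the control range. The part of inflammation in these falls was not tested.

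Cyp4a31 was 7.69, 8.47, 7.93 and 8.79 in piperonyl-butoxide livers, against 7.30, 7.97, 6.64, 7.13 and 6.52 in Co2 livers. Control mouse 2 lay within the treated range and the other 4 below it, and the difference of 1.11 ± 0.36 did not pass (adjusted p = 0.127). Without that control, Co2 mouse 2, it passed (1.32 ± 0.37, adjusted p = 0.0465). In the remaining comparisons Cyp4a31 differed by −0.81 (phenobarbital, 28 days) to 0.10 (phenobarbital, 56 days) and did not pass.

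**Figure D2:**
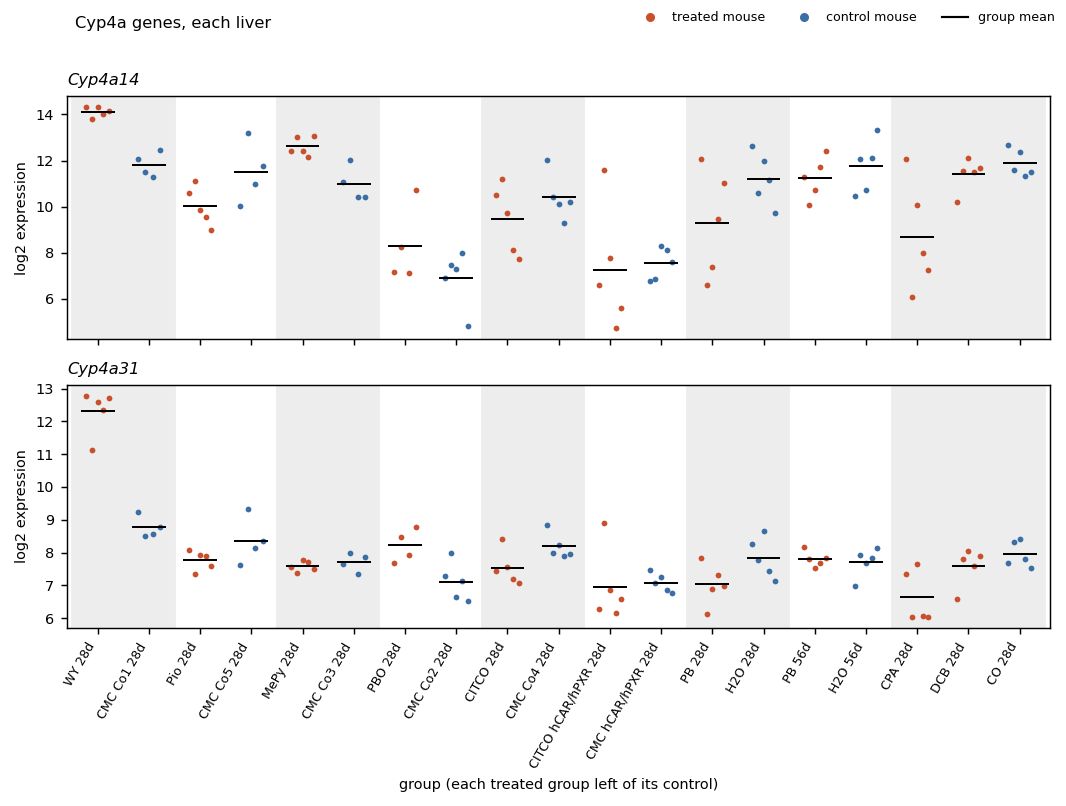
Log2 expression (y axis) of Cyp4a14 and Cyp4a31 in each of 91 livers, by group (x axis); orange points are treated mice, blue points control mice, black lines group means, and shading joins a treated group and the control to its right, with 2 treated groups left of corn oil. Cyp4a31 is high in the Wy-14643 group alone (11.11 to 12.77), whereas Cyp4a14 ranges from 4.73 to 14.32 and also differs between control groups.

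Cyp4f14 encodes the mouse enzyme best known for omega-hydroxylation of leukotriene B4. It lies next to Cyp4f13 on chromosome 17, where Cyp4f15 also lies. Of the 7 members, 5 have a promoter in the RefSeq table used here (GRCm38.p6, 250 bases before to 50 after each start). Those of the 3 Cyp4f genes are shown because the 3 genes share a family and a chromosome and Cyp4f14 passed under Wy-14643 while Cyp4f13 (−0.27 ± 0.12, adjusted p = 0.161) and Cyp4f15 (0.25 ± 0.14, adjusted p = 0.256) did not. Differences between the genes were not tested. Capitals mark GGATTGG, which holds an inverted CCAAT box. The positions are chr17:32917307-32917606 (minus strand, the first of 4 starts listed) for Cyp4f14, chr17:32947312-32947611 (minus strand) for Cyp4f13 and chr17:32685409-32685708 (plus strand) for Cyp4f15, and each sequence reads 5′ to 3′ along its gene's strand.
Cyp4f14: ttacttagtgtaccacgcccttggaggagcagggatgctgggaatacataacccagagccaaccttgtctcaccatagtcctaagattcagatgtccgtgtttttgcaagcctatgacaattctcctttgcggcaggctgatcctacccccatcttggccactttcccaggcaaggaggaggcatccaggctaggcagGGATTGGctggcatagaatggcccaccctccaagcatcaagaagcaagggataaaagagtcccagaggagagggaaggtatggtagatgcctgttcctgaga
Cyp4f13: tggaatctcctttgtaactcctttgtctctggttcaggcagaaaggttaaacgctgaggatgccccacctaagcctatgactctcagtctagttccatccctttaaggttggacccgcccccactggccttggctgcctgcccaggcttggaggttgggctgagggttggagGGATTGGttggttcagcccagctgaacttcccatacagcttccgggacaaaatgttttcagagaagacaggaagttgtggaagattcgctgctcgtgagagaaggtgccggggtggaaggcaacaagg
Cyp4f15: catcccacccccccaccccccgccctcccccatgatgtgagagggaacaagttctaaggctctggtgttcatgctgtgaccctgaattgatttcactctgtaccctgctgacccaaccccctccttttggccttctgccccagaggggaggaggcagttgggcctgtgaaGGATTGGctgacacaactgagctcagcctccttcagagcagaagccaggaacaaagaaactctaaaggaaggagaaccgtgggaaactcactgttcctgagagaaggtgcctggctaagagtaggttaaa
The motif was chosen after these sequences were read. It begins 52 bases before the start shown in Cyp4f14, 78 before it in Cyp4f13 and 80 before it in Cyp4f15. For the next starts listed for Cyp4f14 it begins 66 and 79 bases before, so its distance depends on the start chosen. The window of the last Cyp4f14 start lacks it, as do those of Cyp4b1 and Cyp4v3. Of 27025 promoters of the table, 1 per gene, 4.73% hold it on either strand. The CCAAT box itself, searched as CCAAT or ATTGG and contained in that motif, is in 37.9% of promoters. The nuclear receptor half-site AGGTCA, on either strand, is in none of the windows of the 5 members and in 16.0% of all promoters. Direct repeats of that half-site spaced by 1 or by 4 bases, which contain it, are in 0.0444% and 0.0111% of promoters and also in none of these windows.

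Cyp4f14 fell under Wy-14643. It was 8.99, 9.52, 8.67, 8.41 and 8.38 in treated livers, against 9.60, 10.15, 10.02 and 10.27 in Co1 livers. All 5 treated mice lay below all controls, as held for 5.08% of all genes, with the highest, mouse 2, just under the lowest control. The fall was −1.22 ± 0.19 (adjusted p = 2.2e-06), a level 2.32-fold lower. In piperonyl-butoxide livers Cyp4f14 was 9.85, 9.44, 9.34 and 9.11, against 9.57, 9.24, 10.46, 10.29 and 10.25 in Co2 livers. These overlapped, and the difference of −0.52 ± 0.19 did not pass (adjusted p = 0.208). It passed without Co2 mouse 2 (−0.71, adjusted p = 0.0378) and against the mean of the 5 CMC cohorts (−1.01, adjusted p = 3.19e-07). In 1,4-dichlorobenzene livers it was 10.04, 10.67, 11.14, 10.53 and 10.68, against 10.97, 11.15, 11.25, 11.19 and 10.87 under corn oil. Treated mouse 3 lay within the control range and the other 4 below it, and the difference of −0.47 ± 0.18 did not pass (adjusted p = 0.145) but did without that mouse (−0.60, adjusted p = 0.0403). In the other 7 comparisons Cyp4f14 differed by −0.31 to 0.16 and did not pass.

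Cyp4f15 was the 1 member that passed under phenobarbital. At 28 days it was 10.97, 10.81, 10.60, 10.75 and 10.62 in treated livers, against 10.00, 9.97, 10.21, 10.49 and 10.21 in mice on water. The groups did not overlap, as held for 1.61% of all genes in this direction. The rise was 0.58 ± 0.13 (adjusted p = 0.011), a ratio of 1.49, and it no longer passed without treated mouse 1 (adjusted p = 0.0642), control mouse 1 (0.0531) or control mouse 2 (0.0679). At 56 days it was 10.57, 10.73, 10.65, 10.59 and 10.53, against 10.36, 10.38, 10.39, 10.36 and 11.02. Control mouse 5 lay above every treated mouse and the other 4 controls below them, with a difference of 0.11 ± 0.13 (adjusted p = 0.989), or 0.24 without that control (adjusted p = 0.862). The 28-day controls had the lowest Cyp4f15 mean of the 19 groups, 10.18 ± 0.21, and the treated mean of 10.75 ± 0.15 (SD, n = 5 each) lay within the range of the other 8 control groups, 10.50 to 10.83. The change in response between the times, 56 minus 28 days, was −0.47 ± 0.19 and did not pass (adjusted p = 0.907), where 0% of all genes passed and 4.83% had an unadjusted p under 0.05. Livers labelled methapyrilene differed by −0.31 ± 0.14 (adjusted p = 0.676), and the remaining differences were smaller than 0.33 in size.

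Cyp4f13 passed in none of the 10 comparisons. Under 1,4-dichlorobenzene it was 8.31, 8.54, 8.67, 8.46 and 8.46, against 8.83, 8.73, 8.69, 8.68 and 8.74 under corn oil. All treated mice lay below the controls, as 1.92% of all genes did, with the highest treated and the lowest control mouse 0.01 apart, and the difference of −0.24 ± 0.12 did not pass (adjusted p = 0.302). Its range over all 91 livers, 8.13 to 9.34, was the narrowest of the 7 members.

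Cyp4v3 fell in 3 comparisons. Under Wy-14643 it was 12.24, 12.15, 12.41, 12.33 and 11.84, against 13.16, 13.05, 13.01 and 13.13 in Co1 livers. The groups lay well apart, with all treated mice below all controls, as held for 5.08% of all genes. The fall was −0.89 ± 0.15 (adjusted p = 7.23e-06), a level 1.85-fold lower, and the Co1 mean was the highest of all 19 groups by the probe set used. The other probe set of Cyp4v3 averaged 9.08 ± 0.54 (SD, n = 5) in treated livers and 9.94 ± 0.52 (SD, n = 4) in Co1 livers and fell by −0.85 ± 0.22 (adjusted p = 0.00623).

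Under cyproterone acetate Cyp4v3 was 11.73, 11.81, 12.42, 11.56 and 12.01, and under 1,4-dichlorobenzene 11.68, 11.81, 12.31, 11.96 and 11.72, against 12.47, 12.41, 12.36, 12.56 and 12.54 in the corn oil mice that both share. Every 1,4-dichlorobenzene mouse lay below the controls, as held for 1.92% of all genes, and 4 of 5 cyproterone acetate mice lay below them. The falls were −0.56 ± 0.14 (adjusted p = 0.00677) and −0.58 ± 0.14 (adjusted p = 0.00547). The cyproterone acetate call was lost when the groups compared were fitted alone (adjusted p = 0.0604), and the other probe set differed by −0.62 ± 0.21 (adjusted p = 0.0732) and −0.52 ± 0.21 (adjusted p = 0.196) in the same order. The 2 treated groups differed from each other by 0.01 (95% interval −0.26 to 0.29). Livers labelled pioglitazone had 12.51, 12.27, 12.59, 12.57 and 12.29, against 12.97, 12.94, 12.89 and 12.84 in Co5. All 5 lay below the controls, as 1.67% of all genes did, but the difference of −0.46 ± 0.15 did not pass (adjusted p = 0.303).

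Cyp4b1 passed in none of the 10 comparisons, with differences from −0.55 ± 0.25 under cyproterone acetate (adjusted p = 0.219) to 0.46 ± 0.27 under Wy-14643 (adjusted p = 0.270). Its level tended to be higher in 1 set of groups than in the other, with overlap. In the 7 groups on water, phenobarbital, corn oil, cyproterone acetate or 1,4-dichlorobenzene the group means were 7.72 to 8.69, with a median over 35 mice of 8.46 and a range of 7.39 to 9.21. In the 12 groups given CMC or set against CMC mice the means were 6.56 to 7.82, with a median over 56 mice of 7.13 and a range of 5.71 to 8.53. The mean level of 17 endothelial markers, listed after these values were seen, moved with it, at group means of 7.23 to 7.61 in the 7 groups and 6.50 to 7.31 in the 12. Their part in the Cyp4b1 level was not tested. Vehicle and cohort cannot be told apart in this difference, which was seen in the data and not tested.

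**Figure D3:**
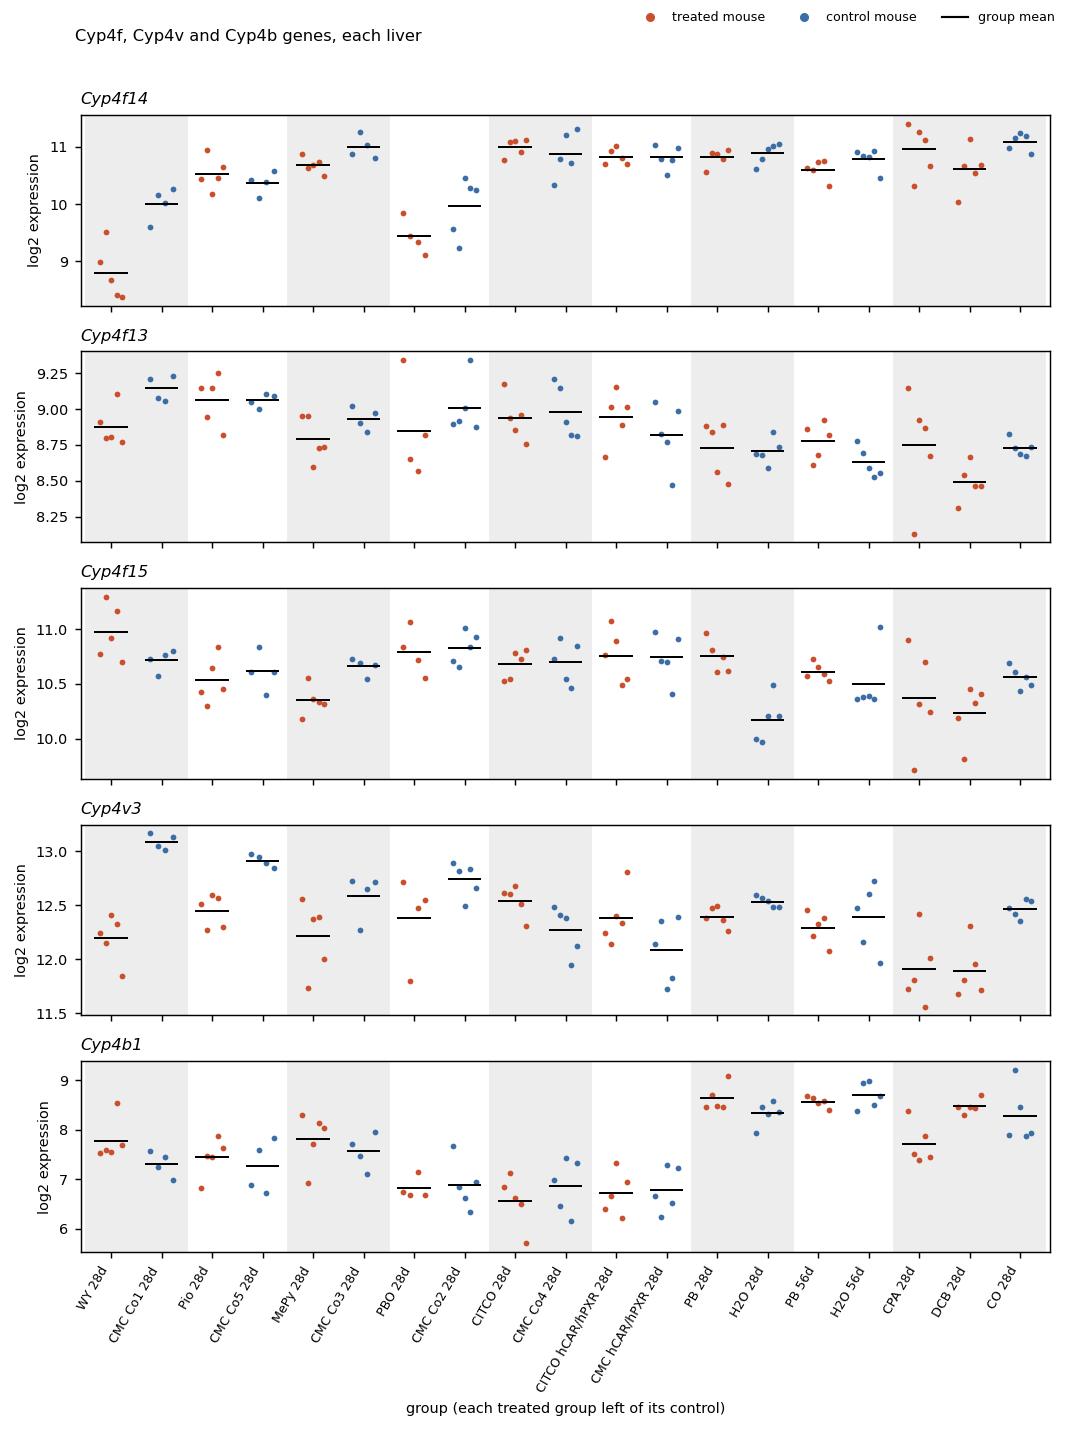
Log2 expression (y axis, scaled for each gene) of Cyp4f14, Cyp4f13, Cyp4f15, Cyp4v3 and Cyp4b1 in each of 91 livers, by group (x axis); orange points are treated mice, blue points control mice, and black lines group means. Cyp4f14 is lowest in the Wy-14643 group (8.38 to 9.52), Cyp4v3 highest in the Co1 group (13.01 to 13.16), and Cyp4b1 mostly higher in the water and corn oil groups on the right than in the CMC groups, with overlap.

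The 5 other Cyp4 genes measured passed in none of the 10 comparisons. Cyp4a12a, the male-predominant omega-hydroxylase of mouse, had group means between 10.70 and 12.79, and its largest difference was 1.34 ± 0.42 at 56 days of phenobarbital (adjusted p = 0.187). That difference rests on 1 control mouse. Cyp4a12a was 12.17, 11.92, 11.75, 12.22 and 12.13 in the treated mice, against 11.84, 11.48, 12.16, 12.001 and 6.02 in mice on water, and without control mouse 5 it was 0.17 ± 0.21 (adjusted p = 0.997) with a control mean of 11.87. The liver with the highest kidney and lung marker mean, 5.47, was also in this control group. These means were kept by group only, so the number of that mouse is not given here. The sex, identity and tissue purity of control mouse 5 were not tested. This mouse was kept in the comparisons at 56 days except where it is named as left out. Cyp4f16, Cyp4f18, Cyp4f39 and Cyp4x1 had group means of 3.36 to 6.00, low on this scale.

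Genes of the pathways around the omega-hydroxylases were read from lists. Under Wy-14643 21 of 37 measured PPARα target genes rose and none fell, with a median log2 change of 0.66 against −0.04 for all genes. The largest of these rises were 5.03 ± 0.56 for Cidea, a lipid droplet protein, 2.85 ± 0.27 for Acot2, a mitochondrial acyl-CoA thioesterase, and 2.69 ± 0.34 for Cd36, a fatty acid transporter. Of 21 genes that carry omega-hydroxylated fatty acids on to dicarboxylic acids and shorten these, 9 rose and 1 fell, and 5 of the 21 are also among the PPARα targets. They included Ehhadh, the peroxisomal bifunctional enzyme, at 2.58 ± 0.26, and Abcd2, a peroxisomal fatty acyl-CoA transporter, at 2.70 ± 0.52, while the 1 that fell was Adh4, an alcohol dehydrogenase, at −0.63 ± 0.19. Of 22 eicosanoid genes 2 rose, Hpgd at 0.89 ± 0.21 and Cyp2j6 at 0.38 ± 0.13, and 2 fell, Cyp2c54 at −3.28 ± 0.30 and Cyp2c50 at −2.38 ± 0.18. In the same livers 9 of 16 macrophage markers rose, with means per mouse of 7.17 to 8.36 against 6.58 to 7.07 in Co1. The Co1 group mean of these markers, 6.77, lay near the low end of the 9 control groups, 6.71 (Co5) to 8.41 (water, 28 days). The Wy-14643 group mean of 7.84 lay within that range. The part of macrophages in the falls of Cyp4f14 and Cyp4v3 was not tested. Hepatocyte markers per mouse averaged 13.06 to 13.43 in Wy-14643 livers and 13.25 to 13.38 in Co1 livers, and 1 of 13, Apoc3, fell (−0.22 ± 0.05).

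Under cyproterone acetate, where Cyp4a14 and Cyp4a31 fell, 8 of 37 PPARα targets fell and none rose, with a median of −0.27 against 0.02 for all genes. Cpt1a, which admits fatty acids to mitochondria, fell by −1.02 ± 0.15, Acaa1b, a peroxisomal thiolase, by −1.02 ± 0.14 and Ehhadh by −0.84 ± 0.24. Ppara itself fell by −1.14 ± 0.20 (adjusted p = 4.01e-05), 1 of 2 falls, with no rise, among 11 nuclear receptor and coregulator genes. Of these genes Rxra averaged 10.28, Hnf4a 12.39 and Nr1i2 6.79, against 10.66, 12.86 and 7.27 under corn oil. The change was above 0 for 6 of the 11. The part of Ppara in the Cyp4 falls was not tested. Of the dicarboxylic acid genes 7 of 21 fell and none rose, among them Abcd2 at −2.26 ± 0.49. In the same livers 6 of 25 acute phase genes rose, among them Lcn2 at 3.63 ± 0.98, and 7 of 16 time-of-day genes fell while 2 rose, with Dbp at −2.24 ± 0.46 among the falls and Arntl at 1.34 ± 0.24 and Clock at 0.72 ± 0.18 as the rises. The labels used here give no hour of necropsy, and the parts of inflammation and of time of day in the Cyp4 falls were not tested. Under 1,4-dichlorobenzene 2 of 37 PPARα targets fell, Cpt1a at −0.66 ± 0.15 and Creb3l3 at −0.34 ± 0.08, and 1 rose, Cd36 at 1.42 ± 0.32. In these livers Ppara fell by −0.67 ± 0.20 (adjusted p = 0.0325), 1 of 3 falls, with 1 rise, among the 11 nuclear receptor and coregulator genes. Of these genes Rxra averaged 10.03 and Hnf4a 12.33, against 10.66 and 12.86 under corn oil. Pparg averaged 8.13 against 7.40, and 6 of the 11 had a change above 0. Beside Cyp4v3, 6 of 13 hepatocyte markers fell, by −0.15 to −0.54.

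Phenobarbital at 28 days, where Cyp4f15 rose, raised 3 of 22 eicosanoid genes, Cyp2c54 by 2.27 ± 0.28, Cyp2c50 by 1.12 ± 0.17 and Cyp2c29 by 0.83 ± 0.11, all fatty acid epoxygenases of the Cyp2c family, and lowered 4 of 37 PPARα targets, Pex11a by −0.78 ± 0.18, Plin2 by −0.68 ± 0.17, Mgll by −0.67 ± 0.17 and Slc25a20 by −0.42 ± 0.11. At 56 days, where Cyp4f15 did not pass, the same 3 eicosanoid genes rose, by 2.17 ± 0.28, 1.01 ± 0.16 and 0.69 ± 0.11 in that order, and of the PPARα targets none fell and 1 rose, Slc22a5 at 0.70 ± 0.18. In livers labelled pioglitazone no PPARα target passed. In livers labelled methapyrilene 3 of 37 rose, Cidea by 3.11 ± 0.56, Cd36 by 1.76 ± 0.34 and Vnn1, a pantetheinase, by 1.64 ± 0.37, without a call for a Cyp4 gene. Cidea and Cd36 also stand on the list of PPARγ and lipid droplet genes, 5 of whose 14 rose in these livers, and the 2 lists share 2 genes. Under piperonyl-butoxide 3 of 37 rose, Cd36 by 1.90 ± 0.34, Vnn1 by 1.58 ± 0.37 and Aldh3a2, the fatty aldehyde dehydrogenase that acts after omega-hydroxylation, by 0.94 ± 0.25.

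The response to Wy-14643 was set against that of livers labelled pioglitazone, each relative to its own CMC cohort. Of the 7 members 2 differed, where 3.02% of all genes did. Cyp4a31 responded more by 4.11 ± 0.51 (adjusted p = 8.62e-09) and Cyp4f14 by −1.37 ± 0.27 (adjusted p = 0.000568), whereas Cyp4a14 at 3.77 ± 1.22 (adjusted p = 0.071, and 0.00203 when the groups compared were fitted alone) and Cyp4v3 at −0.43 ± 0.21 (adjusted p = 0.277) did not pass. The response to CITCO was not shown to differ between hCAR/hPXR and C57BL mice for any member, where 0.0055% of all genes differed, and the estimates ran from −0.12 to 0.68 with a 95% interval for Cyp4a14 of −1.62 to 2.98.

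Untreated levels moved between cohorts. Over the 5 C57BL CMC cohorts 4 members differed by a moderated F test, where 33.2% of all genes did. Cyp4a14 averaged 11.83 ± 0.54 in Co1, 11.50 ± 1.34 in Co5, 10.99 ± 0.75 in Co3, 10.41 ± 1.00 in Co4 and 6.90 ± 1.22 in Co2 (SD; adjusted p = 3.98e-06). Co2 lay below the rest, and all 5 of its mice, at 4.84 to 8.001, lay below every mouse of the other 4 cohorts, as 1.1% of all genes did. Cyp4a31 averaged 8.78 in Co1 and 7.11 in Co2 at the extremes (adjusted p = 0.000997), Cyp4f14 10.99 in Co3 and 9.96 in Co2 (adjusted p = 1.09e-06) and Cyp4v3 13.09 in Co1 and 12.27 in Co4 (adjusted p = 4.1e-05). Cyp4b1, Cyp4f13 and Cyp4f15 did not pass. The other probe set of Cyp4v3 stood at 7.82 ± 0.17 in piperonyl-butoxide livers (n = 4) and 8.48 ± 0.84 in Co2 livers (n = 5), against 9.08 to 10.70 in the other 17 group means. By the probe set used, these 2 groups averaged 12.38 and 12.74, and Co2 ranked 3 from the top of the 19 groups. Which C57BL CMC cohort is lowest in Cyp4v3 thus depends on the probe set, Co4 by the one used and Co2 by the other. In hCAR/hPXR mice given CMC Cyp4a14 averaged 7.54 ± 0.70, against 10.41 ± 1.00 in Co4 (SD, n = 5 each). All 5 hCAR/hPXR mice, at 6.78 to 8.30, lay below all 5 Co4 mice, as 0.544% of all genes did. The difference of −2.87 ± 0.82 did not pass (adjusted p = 0.195, with 0.126% of all genes called) but passed when these 2 groups were fitted alone (adjusted p = 0.0283). Strain and cohort cannot be told apart there.

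Mice of 1 group differed more in Cyp4a14 than in nearly any other gene. The pooled SD within groups was 1.35 for Cyp4a14, above that of 99.96% of the genes tested, 0.56 for Cyp4a31, 0.41 for Cyp4b1, 0.29 for Cyp4f14, 0.23 for Cyp4v3, 0.21 for Cyp4f15 and 0.18 for Cyp4f13, against a median of 0.20 over all genes. When the 19 group means of a gene were put in order, the gap between 2 neighbours exceeded the larger of their SDs in 2 of 18 places for Cyp4a14, Cyp4f14 and Cyp4v3, in 1 for Cyp4a31 and Cyp4f13 and in 0 for Cyp4b1 and Cyp4f15. For Cyp4a14 these lay between Wy-14643 (14.12 ± 0.21) and the livers labelled methapyrilene (12.62 ± 0.40) and between those and corn oil (11.89 ± 0.60). Below that no neighbours are told apart by this rule, though groups further apart in the order can differ, as the C57BL CMC cohorts did by the F test.

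Cyp4a14 and Cyp4a31 moved together from mouse to mouse. Over the deviations of 91 mice from their group means, r was 0.75 and rho 0.68 (p = 1e-05 each, the smallest the 100000 permutations within groups can give; adjusted p = 0.00021 over 21 pairs of members). Without the 2 mice farthest from the median of Cyp4a14 r was 0.69, and within the 42 control mice alone it was 0.68 (adjusted p = 0.00147). Cohort means are removed here, so that differences between cohorts do not enter, but the 2 genes share a gene cluster and close sequence, and shared probe signal was not tested. Cyp4f13 and Cyp4f15 gave r = 0.42 (adjusted p = 0.0304) and rho = 0.31 (adjusted p = 0.0707), with r = 0.33 without the 2 farthest mice, and in control mice alone the relation did not pass (0.37, adjusted p = 0.291). The other 19 pairs did not pass over all mice. In control mice alone Cyp4a31 and Cyp4f14 passed with r = −0.49 (adjusted p = 0.0348), against −0.15 over all mice (adjusted p = 0.382).

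**Figure D4:**
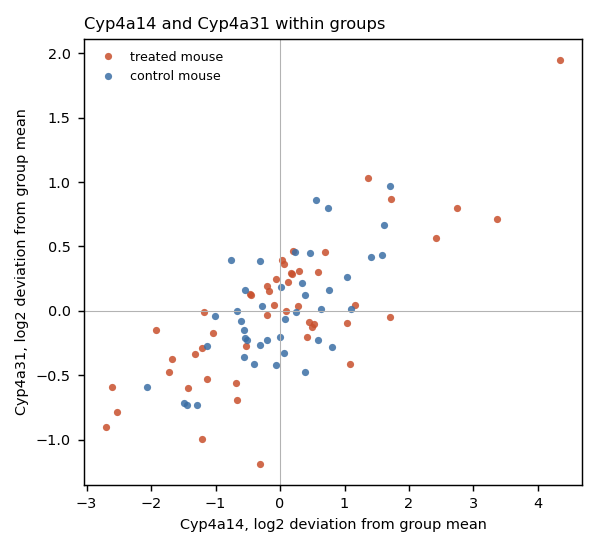
Deviation of each of 91 mice from its group mean, in log2 units, for Cyp4a14 (x axis) and Cyp4a31 (y axis); orange points are treated mice and blue points control mice. Mice above their group in 1 gene tend to be above it in the other (r = 0.75), and the mouse at the upper right is 1 of the hCAR/hPXR mice given CITCO.

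Over the 19 group means the genes outside the family most like Cyp4a14 were Acadl (r = 0.90), Ech1 (0.90), Eci1 (0.89), Fabp2 (0.89) and Ehhadh (0.89), enzymes of fatty acid oxidation apart from Fabp2, a fatty acid binding protein. For Cyp4a31 they were Acot2 (r = 0.96), Slc35f1 and Rpp40, but without the Wy-14643 group these r were 0.79, 0.53 and 0.58. Cyp4f14 was most like Akr1c6, a hydroxysteroid dehydrogenase (0.94), Mug1, a protease inhibitor of plasma (0.93), and Zfp946 (0.93). Cyp4b1 was most like Bmp6 (0.98), Kdr, the VEGF receptor of endothelial cells (0.98), and Oit3 (0.97). For Cyp4f13 they were Ppp1r11, Rbbp5 and Fam234a (0.90 to 0.91), for Cyp4f15 Ubap2l, Sfswap and Dcun1d1 (0.83 to 0.86) and for Cyp4v3 Top2b, Vps37a and Zfpm1 (0.85 each). These are descriptions over group means that share arrays and cohorts. Among the members, the group means of Cyp4a31 and Cyp4f14 had r = −0.76, and −0.40 without the Wy-14643 group.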

How the data were processed

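RNA of whole mouse liver was hybridised to 1 Affymetrix array per mouse, 91 arrays in all. The deposited values are log2 expression values of 45037 probe sets, made with RMA per the submitters' processing notes; no version of it is stated in those notes. They ranged from 2.61 to 15.34 with array medians of 5.18 to 5.36, and no pair of arrays correlated above 0.9949. RMA pools the probes of a probe set, so a probe set that takes up signal of a close relative cannot be told apart from its gene. On an array the number of mice, not a read depth, limits the precision.

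Groups were taken from the sample titles. Titles of the mice given phenobarbital for 28 days, and of no other group, end in a bracketed number whose meaning is not given. Of the probe sets, 34945 name 1 gene symbol in the platform annotation, 932 name several and 9160 are unnamed here, and for each of 18193 genes 1 such probe set was kept, the one of highest mean over all arrays. limma 3.58.1 in R 4.3.3 fitted 1 mean per group over all arrays (72 residual degrees of freedom), with lmFit, contrasts.fit and eBayes with a trend. Each adjusted p is two-sided, from that fit, with Benjamini-Hochberg adjustment over all genes of a comparison, and passes under 0.05. Each of these p-values sets a difference of group means against the spread between mice within groups, pooled over all 19 groups. Scripts were tested on simulated data. Correlations between members used deviations from group means and 100000 permutations within groups (Python 3.11.15, numpy 2.4.6).

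The members, the 12 gene lists and the tests were chosen with earlier results of these data known. All members and other measured Cyp4 genes are named, with up to 4 genes of the largest called change per list, and genes outside that rule (such as Adh4, Apoc3, Cyp2j6 and Clock) were named after their values were seen. Replicate numbers do not pair the mice: the correlation of same-numbered mice ran from −0.32 to 0.22. Alternatives were every probe set, the mean of a gene's probe sets, no trend, a robust fit, the compared groups alone, array weights, only genes with a mean over all arrays of at least 6, median centring, the mean of the 5 CMC cohorts as control, the replicate block and each array left out.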

Additional observations from a re-analysis of the deposited data

Results flagged for a closer look

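Single mice stood far from their group for a member, by Dixon's test, in 7 of 133 sets of a member and a group, where chance gives about 5%. For Cyp4a31 these were mouse 2 of the hCAR/hPXR mice given CITCO at 8.91, the next mouse at 6.86, and mouse 2 of the Wy-14643 group at 11.11, the next at 12.35. For Cyp4b1 they were mouse 3 of the piperonyl-butoxide group at 7.14 (next 6.73) and mouse 4 of the Wy-14643 group at 8.53 (next 7.70). Mouse 5 on water for 56 days was low in Cyp4f14 at 10.45 (next 10.82) and high in Cyp4f15 at 11.02 (next 10.39), and its Cyp4a12a was 6.02, against 11.48 to 12.16 in the other 4 mice of its group. Mouse 4 of Co2 was high in Cyp4f13 at 9.34 (next 9.01).

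Responses differed between treatments by a test of the difference in 3 cases. Against the response of livers labelled pioglitazone, the response to Wy-14643 was larger by 4.11 for Cyp4a31 and differed by −1.37 for Cyp4f14. Cyproterone acetate livers differed from 1,4-dichlorobenzene livers by −2.72 for Cyp4a14, the call least stable to leaving out a mouse.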

How the results depend on the processing

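Of 2191 values of members under 10 other settings and with each of 91 arrays left out, 2151 kept their side of the threshold, 18 no longer passed, 21 newly passed and 1 reversed with a call, besides 84 changes of sign that passed in neither setting. The calls for Cyp4a31, Cyp4f14 and Cyp4v3 under Wy-14643 held in every setting run. Against the mean of the 5 CMC cohorts, Cyp4a14 under piperonyl-butoxide reversed to −2.01 (adjusted p = 0.0248). Members called with that control numbered 3 for piperonyl-butoxide, 5 for Wy-14643, 4 for livers labelled methapyrilene and 2 for CITCO in C57BL mice. Of all 18193 genes 4837, 2481, 2785 and 1896 were called in that order, against 147, 1936, 33 and 1 with the named cohort as control. With the compared groups fitted alone, 0 members were called for cyproterone acetate (adjusted p of 0.0604 to 0.0886 for Cyp4v3, Cyp4a31 and Cyp4a14), 0 for cyproterone acetate minus 1,4-dichlorobenzene and 1 for hCAR/hPXR minus Co4 controls. Of all genes 289, 239 and 15 were called in that order, against 968, 748 and 23 in the main fit. A robust fit also gave 0 members for cyproterone acetate minus 1,4-dichlorobenzene (adjusted p = 0.0513), with 730 genes called. The cause was not tested. With 1 array left out, members called ranged from 0 to 1 for phenobarbital at 28 days, 1 to 2 for 1,4-dichlorobenzene, 0 to 2 for piperonyl-butoxide and 0 to 2 for cyproterone acetate minus 1,4-dichlorobenzene. Over all genes the calls ranged from 88 to 162, 394 to 935, 71 to 271 and 605 to 950 in that order.

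The replicate block, whose numbers do not pair the mice, left the number of members called at 3 for Wy-14643, 3 for cyproterone acetate and 1 each for 1,4-dichlorobenzene and phenobarbital at 28 days. Of all genes 928, 720, 484 and 111 were called in that order with the block, against 1936, 968, 696 and 176 without it. It could not be fitted for hCAR/hPXR minus Co4 controls or for the F test over cohorts, and that F test was not run with the 5-cohort control.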

Other observations

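Across the 19 group means Cyp4b1 followed genes of endothelial cells, the lining of vessels and sinusoids. Of 17 endothelial markers, listed after the genes most like Cyp4b1 had been seen, 10 had r over 0.9 with it, against 0.401% of all genes. The median r was 0.92 (range 0.49 to 0.98). Kdr, among the genes most like Cyp4b1, is itself 1 of the 17 and of the 10, so the choice of list partly set this count. The group means share cohorts and arrays, so this is a description, and whether the number of endothelial cells or their RNA differed between the cohorts was not tested.

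Under cyproterone acetate 3 of 13 genes of fatty acid synthesis and feeding fell and none rose, and among 13 hepatocyte markers 2 fell and 2 rose. The 2 mice with the highest acute phase means, 12.98 and 12.84, differed in hepatocyte marker mean, 12.78 and 13.29, against 13.25 to 13.45 in the corn oil mice.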
